A study of Mus musculus with 14 samples.

Results

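The genes described here are the 8 that make and load MHC class II molecules and prepare antigen for them: the chain genes H2-Aa, H2-Ab1 and H2-Eb1, the peptide editors H2-DMa and H2-DMb1, the invariant chain Cd74, the transcriptional regulator Ciita, and Ifi30. They were taken by name, and all 8 were found among the 47729 gene identifiers of the series. After removal of genes with too few reads, 14279 genes were tested, and 8 of the 8 were among them. In retinal microglia from eyes injected with microbeads, Ifi30 rose 5.25-fold over naive retinas. H2-Aa, H2-Ab1 and H2-Eb1 had means 11-fold, 8.1-fold and 10.3-fold those of naive retinas without passing edgeR's test. Some other settings called more of the 8, and many more of all genes, as counted at the end. The call of Ifi30 (edgeR's adjusted p = 0.0159) ended with a trend on transcript length removed (0.104), with the replicate number as a block (0.0514) and without any 1 of the 4 naive libraries (0.0679 to 0.0986). The levels of the chain genes varied widely between retinas of one group, and 1 sham-injected retina stood among the 3 highest libraries for each chain gene.

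MHC class II molecules display peptides from endocytosed proteins to helper T cells on the surface of antigen-presenting cells. An alpha and a beta chain assemble in the endoplasmic reticulum around the invariant chain, which blocks the groove and directs the complex to endosomes, where cathepsins degrade the invariant chain and the H2-DM heterodimer exchanges its remnant for antigenic peptide. Ciita binds no DNA itself and acts on proteins already bound to the X and Y boxes upstream of these genes. Ifi30 encodes a lysosomal thiol reductase, also called GILT, which is induced by gamma-interferon and reduces the disulphide bonds of antigens before they are cut. Resting microglia, the resident macrophages of the retina, are known for low class II levels, which rise in inflamed neural tissue.

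The 14 libraries were made with SMART-Seq2, which copies whole transcripts into cDNA, from microglia sorted as CD11b+, Ly6c- and Fcrls+, with 1 library per retina. All mice were wild-type C57BL/6 aged 12 weeks. The groups were 3 retinas with a microbead injection, labelled glaucoma (microbead), 3 retinas of the contralateral eye (contralateral), 4 given a sham injection (sham) and 4 naive retinas (naive). The time after injection, and which retinas came from the same mouse, are not given in the sources used here, so p-values measure the spread between these libraries. In such bulk samples, fewer cells that express a gene and less RNA per cell cannot be told apart.

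Libraries held 1.34 to 14 M reads assigned to genes, with a median of 11.5 M. Microbead 1, with 1.34 M reads and 10167 genes, and contralateral 2, with 10306 genes, had fewer than 12000 genes with reads, and they are left out where stated below. The markers of the sorted cells were read in every library: the 12 microglial genes together reached 15260 to 33800 CPM (reads scaled to library size and composition) in microbead libraries and 22350 to 39660 CPM elsewhere. Ly6c2, which encodes a Ly6c antigen, had 0 reads in every library. Microbead libraries also had relatively more reads from short transcripts: the median log2 difference from the naive mean was higher in 863 genes of at most 1000 bases than in 1328 genes of more than 4000 bases by 1.90, 0.79 and 1.26 in microbead 1, 2 and 3, by 0.46, 0.87 and -0.28 in contralateral 1, 2 and 3, and by -0.27 to 0.16 in sham and naive libraries.

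In the GRCm38 build (GENCODE M21), 5 of the 8 genes lie in the MHC region of chromosome 17: H2-DMa at chr17:34119541-34139101, H2-DMb1 at chr17:34153072-34160230, H2-Ab1 at chr17:34257689-34269419, H2-Aa at chr17:34282744-34287823 on the minus strand and H2-Eb1 at chr17:34305867-34316674. Ciita is at chr16:10480059-10528418, and Ifi30 is at chr8:70762774-70766663 on the minus strand. The annotation places antisense genes over H2-DMa and H2-Eb1, Brd2 over H2-DMa, Dexi over Ciita and a predicted transcript over Ifi30. H2-DMb1 has a closely similar neighbouring copy, H2-DMb2. Whether the authors' counting used strand, or how it split reads between such neighbours, was not given in the sources used here, so these genes carry that uncertainty.

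Sequences before the RefSeq start are printed for H2-Aa and H2-Eb1, which hold the core of the Y box, one of the elements through which Ciita acts, for the stretch of H2-DMb1 that shares a run of bases with H2-Eb1, and for Ifi30, where no core was matched. RefSeq promoter windows (GRCm38.p6) were matched for 5 of the 8 genes (H2-Aa, H2-Eb1, H2-DMa, H2-DMb1 and Ifi30, with 2 windows for H2-DMa), and the 250 bases before each start were searched on both strands. Capitals mark the Y box core ATTGG, or CCAAT on the other strand, and a run of 13 bases common to H2-Eb1 and H2-DMb1. The first 2 sequences and the last one cover bases -120 to -1 from the start, and that of H2-DMb1 covers bases -100 to -71, short of its Y box core. The RefSeq starts of H2-Aa, H2-Eb1 and Ifi30 are the 5′ ends of the genes given above, but that of H2-DMb1, at position 34153191, lies 119 bases inside the GENCODE gene, so the printed bases of H2-DMb1 lie within it. The 2 RefSeq starts of H2-DMa lie 3291 and 5977 bases inside its GENCODE gene.
H2-Aa, chr17:34287824-34287943, minus strand: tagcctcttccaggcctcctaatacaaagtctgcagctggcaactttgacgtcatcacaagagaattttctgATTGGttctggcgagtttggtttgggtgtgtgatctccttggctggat
H2-Eb1, chr17:34305747-34305866, plus strand: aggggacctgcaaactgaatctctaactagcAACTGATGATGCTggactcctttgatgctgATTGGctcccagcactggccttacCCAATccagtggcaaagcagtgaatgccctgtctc
H2-DMb1, chr17:34153091-34153120, plus strand: tacctagtAACTGATGATGCTaggctgatt
Ifi30, chr8:70766664-70766783, minus strand: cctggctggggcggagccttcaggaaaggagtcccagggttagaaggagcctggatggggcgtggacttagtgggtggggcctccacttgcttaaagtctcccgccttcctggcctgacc

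The Y box core began 48 bases before the RefSeq start in H2-Aa, 59 bases before it in H2-Eb1, 61 bases in H2-DMb1 and 198 bases before the second start of H2-DMa, while the window of the first start of H2-DMa held none and no match lay in the window of Ifi30. It is a short motif, and 33.8% of 32851 windows held it. The X box consensus (CC, any base, AG, 2 bases of any kind, AC, 3 bases of any kind, TG) was matched in full in H2-DMb1 alone of the 5 genes, 98 to 85 bases before the start, and in 0.968% of windows. The 13-base run, looked for after the sequences had been seen, began 89 bases before the start of H2-Eb1 and 92 bases before that of H2-DMb1, and was in 2 of 32851 windows. This run overlaps the X box match of H2-DMb1, and the aligned bases of H2-Eb1 depart from the consensus at its first base only. A gamma-interferon-activated site (TTCNNNGAA, in 7.02% of windows) and an interferon-stimulated element (GAAA, 2 bases of any kind, GAAA, in 2.98%) were matched in 0 of the 5 genes. These matches describe letters within the windows and say nothing of binding.

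The first comparison, of microbead with naive retinas, set the class II genes of microglia after microbeads against those of uninjected eyes. Ifi30 alone of the 8 passed the adjusted threshold, with edgeR's adjusted p = 0.0159, although the log2 fold change was above 0 for all 8. Its call ended with the length trend removed (0.104), with the replicate block (0.0514) and without any 1 naive library (up to 0.0986). In the same comparison 0.21% of all genes tested passed that threshold in either direction. The Wald test of DESeq2 called more of the 8 and many more of all genes, as counted at the end. In 5 of the 8 genes (H2-Aa, H2-Ab1, H2-Eb1, H2-DMa and Ifi30) every microbead library lay above every naive library, which was so for 4.85% of all genes. An unadjusted p under 0.05 with a higher microbead mean was found for 6 of the 8, against 4.72% of all genes. The median log2 fold change of the 8 genes was 2.78, and that of all genes tested was -0.14.

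H2-Aa encodes the alpha chain of the I-A molecule. It was read at 365.5, 837.4 and 1699 CPM in microbead 1, 2 and 3, at 262.2, 269.3 and 304.4 CPM in contralateral 1, 2 and 3, at 220.1, 846.4, 169.6 and 84.73 CPM in sham 1 to 4, and at 6.101, 197.9, 27.3 and 120 CPM in naive 1 to 4. Microbead libraries were above all naive and all contralateral libraries, while sham 2 reached the level of microbead 2. Contralateral libraries lay within a narrow band above all naive libraries. The log2 fold change of microbead against naive was 3.46 (SE 0.86, 967.2 ± 676 against 87.83 ± 88.5 CPM, SD, n = 3 and 4), with adjusted p = 0.0957 in edgeR's quasi-likelihood test with Benjamini-Hochberg adjustment.

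H2-Ab1 encodes the beta chain of the I-A molecule. It was read at 509.2, 1115 and 2852 CPM in microbead 1 to 3, at 745.3, 337.1 and 407.9 CPM in contralateral 1 to 3, at 445.5, 1437, 277.4 and 120.9 CPM in sham 1 to 4, and at 90.16, 452.3, 76.42 and 118.3 CPM in naive 1 to 4. All microbead libraries were above all naive libraries, but microbead 1 was below contralateral 1 and sham 2. Against naive its log2 fold change was 3.02 (SE 0.75, n = 3 and 4), with edgeR's adjusted p = 0.0936. Naive 2 was higher than the other naive libraries, which lay between 76.42 and 118.3 CPM.

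H2-Eb1, the beta chain of the I-E molecule, has no functional alpha partner in C57BL/6 mice, which carry a defective alpha gene. It was read at 390.7, 777.9 and 1132 CPM in microbead 1 to 3, at 268.1, 338.6 and 214.6 CPM in contralateral 1 to 3, and at 173.4, 643.6, 108.3 and 94.04 CPM in sham 1 to 4. In naive 1 to 4 it was read at 0, 178.2, 16.96 and 101.5 CPM, and the 0 reads of naive 1 allow up to 0.407 CPM, a limit that covers counting error only. Microbead libraries were above all naive and contralateral libraries, and sham 2 was above microbead 1. Its log2 fold change against naive was 3.37 (SE 1.08, n = 3 and 4), with edgeR's adjusted p = 0.244. The other I-E genes of the mouse, H2-Eb2 and the defective H2-Ea-ps, had 0 reads in every library.

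**Figure D1:**
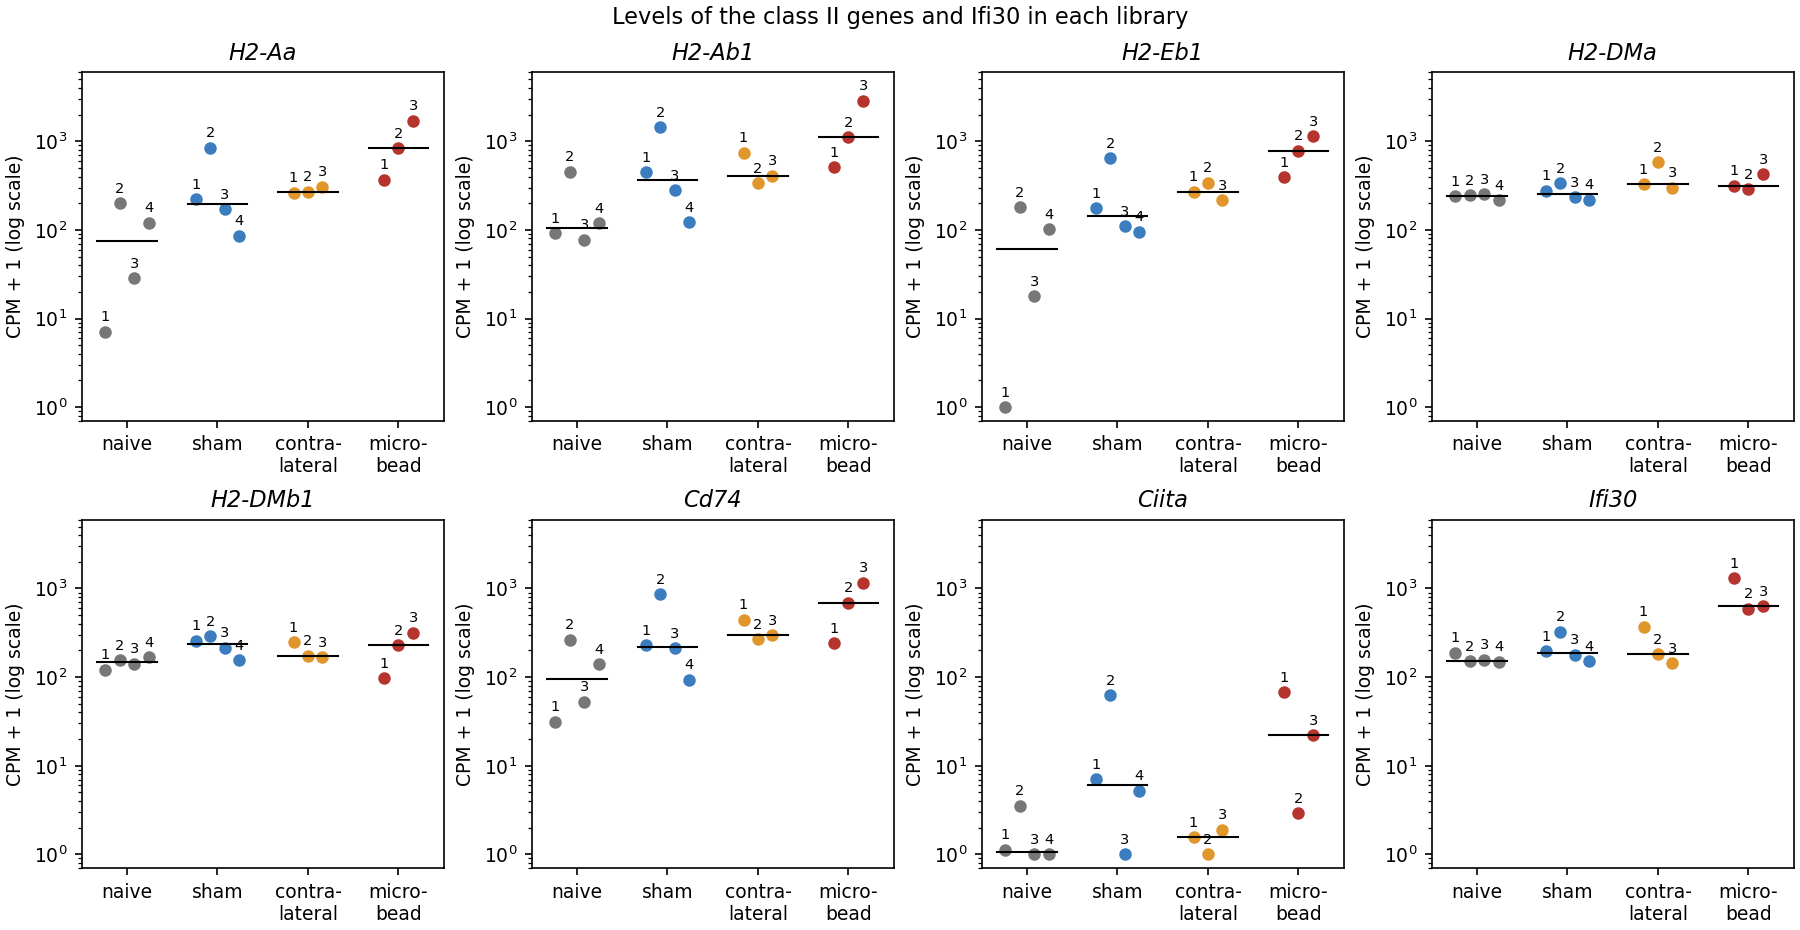
Level of each gene in each of the 14 libraries, as CPM + 1 on a logarithmic axis, by group. Points carry the replicate number and horizontal lines are group medians. Ifi30 is at 587.2 CPM or more in the 3 microbead libraries and at most 369.4 CPM in the other libraries, while the chain genes and Cd74 overlap between microbead and sham libraries.

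Cd74 encodes the invariant chain that accompanies new class II molecules to endosomes. It was read at 241.3, 687.5 and 1158 CPM in microbead 1 to 3, at 444.7, 267.2 and 294.1 CPM in contralateral 1 to 3, at 229.5, 859.5, 210.6 and 92.18 CPM in sham 1 to 4, and at 30.37, 262.4, 51.66 and 138.2 CPM in naive 1 to 4. Microbead 1 was below naive 2, so the groups overlapped, and all contralateral libraries were above all naive libraries. Microbead against naive gave a log2 fold change of 2.53 (SE 0.71, n = 3 and 4), with edgeR's adjusted p = 0.151.

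H2-DMa and H2-DMb1 encode the chains of the peptide editor. H2-DMa was read at 313.1, 288.5 and 424.7 CPM in microbead 1 to 3, at 325.7, 579.9 and 297.8 CPM in contralateral 1 to 3, at 274.9, 335.4, 231 and 218.3 CPM in sham 1 to 4, and at 239.4, 245.9, 253.4 and 215.4 CPM in naive 1 to 4. Every microbead and every contralateral library was above every naive library, by small margins. The log2 fold change of microbead against naive was 0.52 (SE 0.28, n = 3 and 4), with edgeR's adjusted p = 0.53.

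H2-DMb1 was read at 96.23, 229.1 and 315.4 CPM in microbead 1 to 3, at 247, 172.6 and 168 CPM in contralateral 1 to 3, at 255.5, 289.5, 213.3 and 154.2 CPM in sham 1 to 4, and at 120.9, 154.5, 140.8 and 165.9 CPM in naive 1 to 4. Microbead 1 had the lowest level of the 14 libraries and microbead 3 the highest. In microbead against naive its log2 fold change was 0.56 (SE 0.36, n = 3 and 4), with edgeR's adjusted p = 0.618. The 95% intervals of the log2 fold change, -0.07 to 1.11 for H2-DMa and -0.2 to 1.31 for H2-DMb1, ended below the fitted values of H2-Aa, H2-Ab1 and H2-Eb1. The interval of H2-Eb1, 1.1 to 5.64, overlapped both, while those of H2-Aa (1.65 to 5.27) and H2-Ab1 (1.45 to 4.59) overlapped neither. The difference between these genes was not tested.

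Ciita, which switches on class II transcription, was read thinly and in a different order of libraries from the genes it acts on. It was read at 66.79, 1.896 and 21.26 CPM in microbead 1 to 3 (93, 17 and 242 reads), at 6.024, 61.38, 0 and 4.222 CPM in sham 1 to 4, and at 0.1356, 2.548, 0 and 0 CPM in naive 1 to 4. Contralateral 1 to 3 had 3, 0 and 14 reads, or 0.5704, 0 and 0.8956 CPM. A count of 0 allowed up to 0.473 CPM in contralateral 2, 0.228 CPM in sham 3, and 0.239 and 0.247 CPM in naive 3 and 4. Microbead 1 and sham 2 were highest, microbead 2 was below naive 2, and all microbead libraries were above all contralateral libraries. Its fitted log2 fold change against naive was 5.43, with a wide 95% interval of 0.94 to 9.92 (SE 2.14, edgeR's adjusted p = 0.393, n = 3 and 4).

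Ifi30 separated the microbead libraries from all others. It was read at 1308, 587.2 and 626.2 CPM in microbead 1 to 3, at 369.4, 180.4 and 143.1 CPM in contralateral 1 to 3, at 195.5, 325.9, 178.1 and 150.1 CPM in sham 1 to 4, and at 187, 149.1, 156.6 and 147.8 CPM in naive 1 to 4. The naive libraries lay close together, and contralateral 1 and sham 2 were the highest libraries outside the microbead group. The mean was 840.4 ± 405.2 CPM in microbead and 160.1 ± 18.31 CPM in naive libraries (SD, n = 3 and 4), a log2 fold change of 2.39 (SE 0.37), with adjusted p = 0.0159 in edgeR's quasi-likelihood test with Benjamini-Hochberg adjustment.

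The transcript of Ifi30 has 980 bases, and the microbead libraries had relatively more reads from short transcripts, as given above. With the trend on transcript length removed from each library, the log2 fold change of Ifi30 against naive was 1.76 and edgeR's adjusted p was 0.104, so the call ended. It also ended without naive 1, 2, 3 or 4 (adjusted p = 0.0679, 0.0986, 0.0686 and 0.0956 in edgeR, with log2 fold changes of 2.36 to 2.47), and with the replicate number as a block (2.21, adjusted p = 0.0514). Without microbead 1, where Ifi30 was highest and the depth lowest, the log2 fold change was 1.90 and edgeR's adjusted p was 0.048. H2-Aa, H2-Ab1, H2-Eb1 and Cd74, with transcripts of 1106 to 1263 bases, had log2 fold changes of 3.06, 2.68, 3.04 and 2.25 with the trend removed, and edgeR's adjusted p of 0.332, 0.317, 0.483 and 0.409. The part of transcript length in these levels was not tested otherwise.

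**Figure D2:**
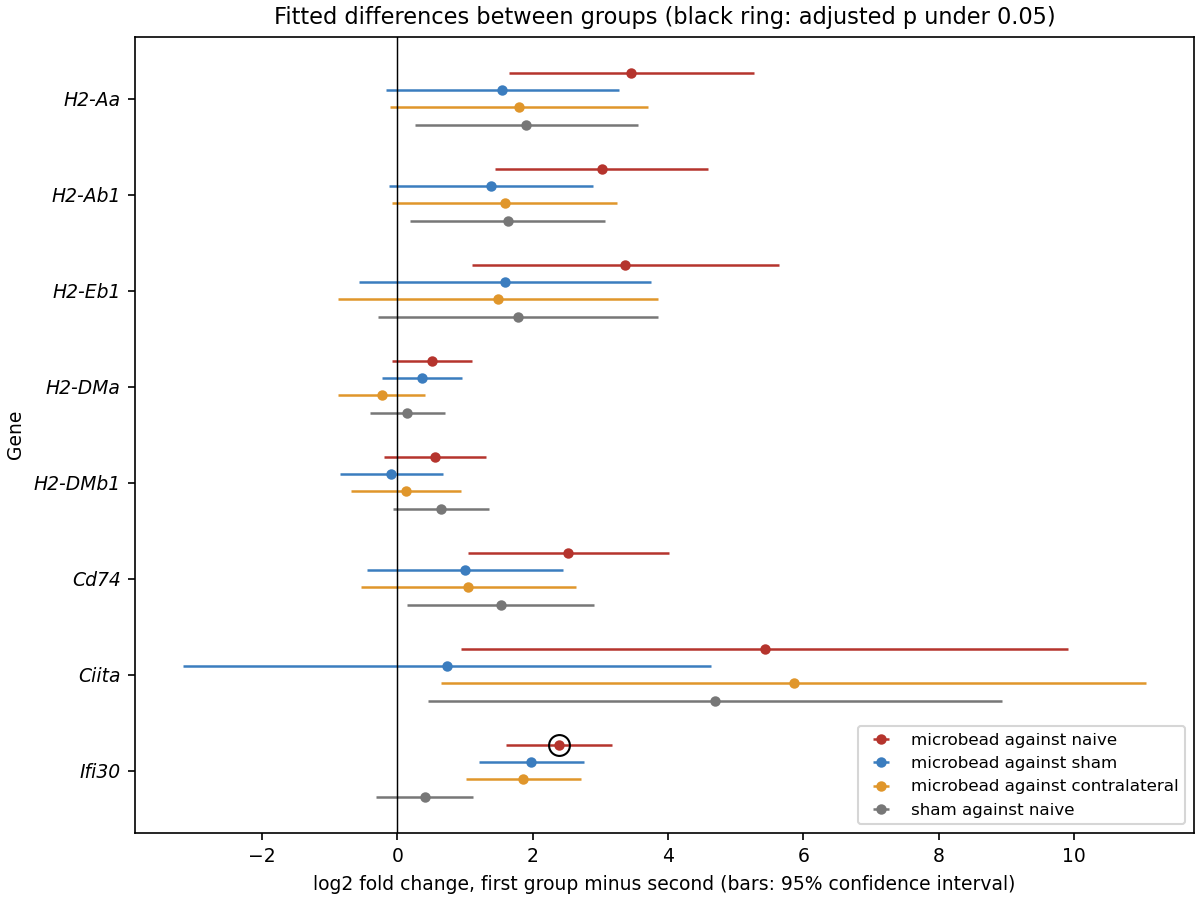
Fitted log2 fold change of each gene in 4 comparisons, with bars for the 95% confidence interval and a ring where the adjusted p of edgeR was under 0.05. Ifi30 in microbead against naive, at 2.39, carries the ring, and the intervals of H2-DMa and H2-DMb1 include 0 in the 4 comparisons shown.

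The comparison of microbead with sham retinas asks what differs beyond an injection. Of the 8 genes 0 passed the adjusted threshold, as against 0.014% of all genes tested. An unadjusted p under 0.05 was found for 1 gene, Ifi30, beside 4.48% of all genes on that side. By the Wald test of DESeq2 the same 1 gene passed after adjustment, but that test called many more of all genes than edgeR, as counted at the end. Ifi30 was also the 1 gene of the 8 with every microbead library above every sham library, which was so for 5.11% of all genes. The median log2 fold change of the 8 genes was 1.19, beside -0.12 for all genes tested.

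Against sham, the log2 fold change of Ifi30 was 1.98 (SE 0.37, 840.4 ± 405.2 against 212.4 ± 77.92 CPM, SD, n = 3 and 4), with edgeR's adjusted p = 0.0664. It passed the threshold without microbead 2 (adjusted p = 0.0387), microbead 3 (0.0182), contralateral 1 (0.0247), contralateral 2 (0.0434) or contralateral 3 (0.0346) in edgeR, with log2 fold changes of 1.96 to 2.16. H2-Aa, H2-Ab1, H2-Eb1 and Cd74 had log2 fold changes of 1.55 (SE 0.82), 1.39 (SE 0.72), 1.59 (SE 1.03) and 1.00 (SE 0.69), with edgeR's adjusted p between 0.538 and 0.681. Without sham 2 these values were 2.62, 2.41, 2.62 and 1.97, with adjusted p between 0.316 and 0.556. H2-DMb1, at -0.09 (SE 0.36), and Ciita, at 0.73 (SE 1.86), changed sign without microbead 1, to 0.23 and -0.67, and H2-DMb1 was at 0.05 without sham 2.

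Setting microbead against the sham and naive groups averaged gives a larger control set, and it was chosen in earlier work on these data after values had been seen. It shares its control libraries with the preceding comparisons. Ifi30 rose, with a log2 fold change of 2.19 (SE 0.30, n = 3 against 8) and edgeR's adjusted p = 0.00279, and was the 1 gene of the 8 past the threshold, beside 1.28% of all genes tested. Its adjusted p was 0.0476 with the length trend removed, 0.017 with the replicate number as a block, and 0.00108 to 0.0364 when each library was left out in turn. Every microbead library was above every sham and naive library for Ifi30 alone of the 8 genes, beside 3.26% of all genes.

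In that comparison H2-Aa, H2-Ab1, H2-Eb1 and Cd74 had log2 fold changes of 2.51 (SE 0.67), 2.20 (SE 0.60), 2.48 (SE 0.85) and 1.76 (SE 0.58), with edgeR's adjusted p of 0.0886, 0.0901, 0.227 and 0.198. Without sham 2, H2-Aa (3.04, adjusted p = 0.0352) and H2-Ab1 (2.71, adjusted p = 0.0297) passed the threshold of edgeR, and without naive 2 H2-Ab1 passed it (2.67, adjusted p = 0.0391). The median log2 fold change of the 8 genes was 2.20, beside -0.12 for all genes tested.

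Microbead retinas were also set against contralateral retinas. Of the 8 genes 0 passed the adjusted threshold, beside 0.028% of all genes tested, and 2 had an unadjusted p under 0.05 (Ciita and Ifi30, beside 4.89% of all genes on that side). By the Wald test of DESeq2, which called many more of all genes than edgeR as counted at the end, 1 of the 8 passed, Ifi30. H2-Aa, H2-Eb1, Ciita and Ifi30 had every microbead library above every contralateral library, so 4 of the 8, beside 5.2% of all genes. Ifi30 had a log2 fold change of 1.86 (SE 0.41, 840.4 ± 405.2 against 231 ± 121.4 CPM, SD, n = 3 and 3), with edgeR's adjusted p = 0.076. It passed without microbead 3 (2.09, adjusted p = 0.0323) or contralateral 1 (2.42, adjusted p = 0.0432) in edgeR. H2-Aa had 1.80 (SE 0.91), H2-Ab1 1.59 (SE 0.79), H2-Eb1 1.49 (SE 1.13) and Cd74 1.05 (SE 0.75), each with edgeR's adjusted p of at least 0.449.

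The contralateral retinas themselves were read above naive retinas for much of the set, without passing the test of edgeR or of DESeq2 after the filter on low counts. In the fit with no filter some of the 8, and more of all genes, passed, as counted at the end. Of the 8 genes 0 passed the adjusted threshold, as did 0% of all genes tested, and DESeq2 called 0 of the 8, while 2, H2-DMa and Cd74, had an unadjusted p under 0.05, beside 2.9% of all genes on that side. H2-Aa, H2-Eb1, H2-DMa, H2-DMb1 and Cd74 had every contralateral library above every naive library, which makes 5 of the 8, beside 2.49% of all genes. Log2 fold changes were 1.66 (SE 0.82) for H2-Aa, 1.88 (SE 1.04) for H2-Eb1, 1.47 (SE 0.70) for Cd74, 0.75 (SE 0.28) for H2-DMa and 0.43 (SE 0.36) for H2-DMb1, with edgeR's adjusted p of at least 0.949 and n = 3 and 4. Ciita, at -0.43 (SE 1.95), did not share that direction, and the median over the 8 genes was 1.09, beside -0.06 for all genes. Depth and the number of genes read differ between these groups as given above, and their part was not tested.

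Sham retinas were compared with naive retinas for the injection alone. Of the 8 genes 0 passed the adjusted threshold, as did 0% of all genes tested, and DESeq2 called 0 of the 8. An unadjusted p under 0.05 was found for 4 genes (H2-Aa, H2-Ab1, Cd74 and Ciita), beside 1.31% of all genes on that side, and in 0 of the 8 was every sham library above every naive library, beside 1.61%. The log2 fold change of H2-Aa was 1.91 (SE 0.79, n = 4 and 4, edgeR's adjusted p = 1), and without sham 2 it was 0.85. For H2-Ab1, Cd74 and Ciita it was 1.63, 1.53 and 4.70 with sham 2, and 0.61, 0.55 and 2.31 without it. The median of the 8 genes was 1.58, beside -0.02 for all genes.

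Contralateral and sham retinas were compared for their class II genes in the absence of a microbead injection in the eye itself. The means of H2-Aa were 278.6 ± 22.58 CPM in contralateral and 330.2 ± 348.6 CPM in sham libraries (SD, n = 3 and 4), whereas the means of Ciita were 0.4887 ± 0.4533 and 17.91 ± 29.09 CPM. In contralateral against sham the log2 fold change was -0.25 (SE 0.83) for H2-Aa and -5.12 (SE 2.36) for Ciita, with edgeR's adjusted p of 1 and 0.963. Without sham 2 that of Ciita was -2.74 and that of H2-Aa was 0.82, so the sign of H2-Aa rested on sham 2. Here too 0 of the 8 genes passed, as did 0% of all genes, by edgeR as by DESeq2 for the 8. An unadjusted p under 0.05 was found for 2 of the 8, H2-DMa on the higher and Ciita on the lower side, beside 2.79% and 2.07% of all genes. In 0 of the 8 genes was every contralateral library above every sham library, beside 2.04% of all genes.

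Levels were compared between genes per transcript length, as FPKM. In naive libraries the highest mean was that of Ifi30, at 246.6 ± 24.48 FPKM, followed by H2-DMa (224.3 ± 27.57), H2-Ab1 (217.8 ± 218.4), H2-DMb1 (147.8 ± 15.93), Cd74 (131.8 ± 116.4), H2-Aa (115 ± 117.3), H2-Eb1 (88.8 ± 99.77) and Ciita (0.1475 ± 0.2754; SD, n = 4). In this order every gene lay within the larger SD of its neighbour. In microbead libraries H2-Ab1 came first, at 1388 ± 1048 FPKM, and the editors H2-DMa (264.9 ± 54.07) and H2-DMb1 (174.2 ± 57.67) came after all chain genes, Cd74 and Ifi30, ahead only of Ciita, at 5.887 ± 7.062 (SD, n = 3). There H2-DMa and H2-DMb1, and H2-DMb1 and Ciita, differed by more than the larger SD, while the neighbours from H2-Ab1 to H2-DMa in the order did not. The mean of H2-DMa was above those of the 3 chain genes in naive libraries and below them in microbead libraries.

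The ratio of H2-Aa to H2-DMa, per length, was taken in each library. It was 1.74, 3.85 and 5.07 in microbead 1 to 3, 1.3, 0.604 and 1.36 in contralateral 1 to 3, 1.09, 3.28, 0.969 and 0.504 in sham 1 to 4, and 0.0391, 1.11, 0.156 and 0.777 in naive 1 to 4. Microbead libraries were above all naive and contralateral libraries, and sham 2 lay among them. Cd74 per H2-Aa moved the other way: it was 0.568, 0.695 and 0.586 in microbead 1 to 3 and 0.828 or more in the other libraries. The ratio of H2-Ab1 to H2-Aa stood between 0.899 and 2.48 except in naive 1, where it was 11.6, with 665 reads of H2-Ab1, 45 of H2-Aa and 0 of H2-Eb1. Naive 1 also had the lowest level of H2-Aa, H2-Eb1 and Cd74 of the 14 libraries.

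The order of the libraries was shared by part of the set. Microbead 3 was highest for H2-Aa, H2-Ab1, H2-Eb1, Cd74 and H2-DMb1, and sham 2 and microbead 2 were the next 2 libraries, in either order, for H2-Aa, H2-Ab1, H2-Eb1 and Cd74. Over the 14 libraries Pearson's r of log2 CPM was 0.97 between H2-Aa and Cd74, 0.951 between H2-Aa and H2-Eb1, and 0.958 between H2-Ab1 and Cd74, and it was 0.946, 0.916 and 0.926 after the group means had been subtracted. With Ifi30 the chain genes had r of 0.548 (H2-Aa), 0.642 (H2-Ab1) and 0.434 (H2-Eb1), and -0.044, 0.215 and -0.084 within groups. Ciita and H2-Aa had r = 0.584, and 0.347 within groups. These values are descriptions over libraries that share depth and the length trend, and no test was made of them.

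By the same measure, the genes most like the mean of H2-Aa, H2-Ab1, H2-Eb1 and Cd74 among 8105 genes compared over the 14 libraries were Sertad1 (r = 0.847), Slamf8 (0.838), Ms4a7 (0.838), Faf2 (0.832) and Snx1 (0.822). Ms4a7 is also a marker of border-associated macrophages, and of the 7 tested genes of that list it was the 1 with a log2 fold change above 0 in microbead against naive (1.54, SE 0.87, edgeR's adjusted p = 0.549). Mrc1, the mannose receptor gene of the same list, had means of 4.364 CPM in microbead and 27.83 CPM in naive libraries. Those most like Ifi30 were Rpl17 (r = 0.968), Cd52 (0.948), Rps13 (0.943) and Tspo (0.931), with transcripts of 775, 514, 657 and 837 bases. These 4 are shorter than the 980 bases of Ifi30, and the ribosomal protein genes Rpl17 and Rps13 have many pseudogene copies, so their counts are uncertain. Among the 8 genes themselves, H2-Ab1 came nearest to Ifi30 after Ciita, at r = 0.642 beside 0.656.

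**Figure D3:**
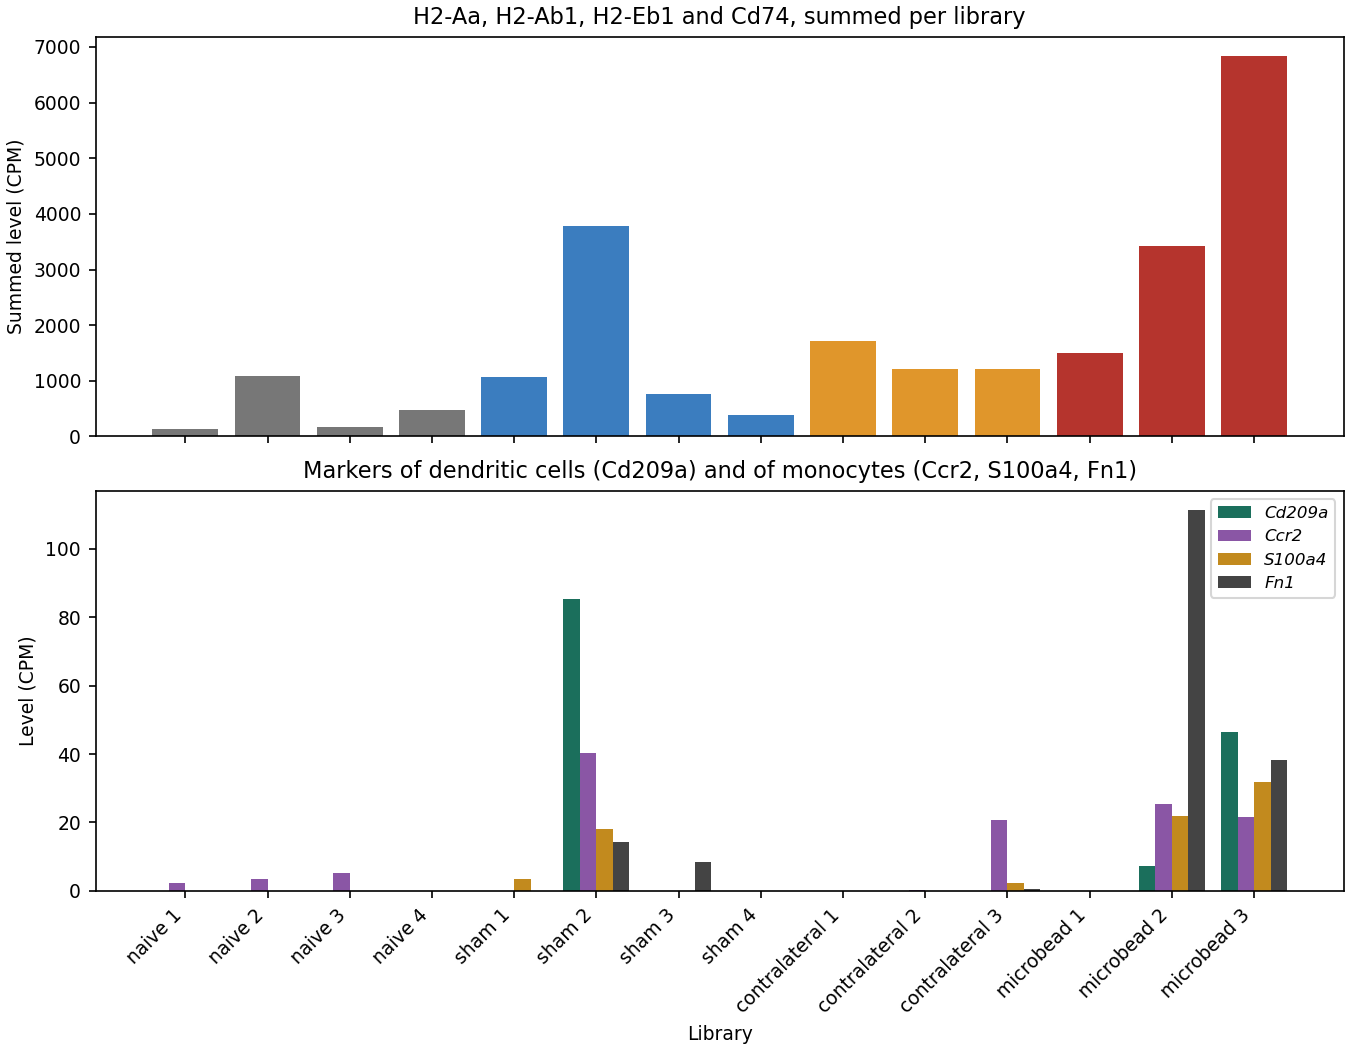
Upper panel: summed CPM of H2-Aa, H2-Ab1, H2-Eb1 and Cd74 in each library. Lower panel: CPM of 4 markers chosen after their values had been seen (Cd209a, Ccr2, S100a4 and Fn1) in the same libraries. Sham 2, microbead 2 and microbead 3 have the 3 highest sums in the upper panel and are the libraries with reads of Cd209a. Microbead 1 has a sum of 1507 CPM with none of the 4 markers, although the whole list of dendritic cell genes summed to 145.1 CPM there.

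Of the markers of other antigen-presenting cells, 4 are given by library (Cd209a, Ccr2, S100a4 and Fn1), chosen after their values had been seen, and the whole lists follow them. The summed level of H2-Aa, H2-Ab1, H2-Eb1 and Cd74 was 1507, 3418 and 6841 CPM in microbead 1 to 3, 1720, 1212 and 1221 CPM in contralateral 1 to 3, 1068, 3787, 765.9 and 391.9 CPM in sham 1 to 4, and 126.6, 1091, 172.3 and 478 CPM in naive 1 to 4. Cd209a, a lectin gene of monocyte-derived and conventional dendritic cells, was read at 7.362 CPM in microbead 2, 46.39 CPM in microbead 3 and 85.47 CPM in sham 2, and had 0 reads in the other 11 libraries. These are the 3 libraries with the highest sums. Ccr2, a chemokine receptor gene of monocytes, was read at 25.32, 21.7 and 40.24 CPM in the same 3 libraries, at 20.6 CPM in contralateral 3 and at 5.333 CPM or less in the others.

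S100a4 and Fn1, both abundant in monocytes and monocyte-derived cells, were read at 21.98 and 111.4 CPM in microbead 2, 31.9 and 38.31 CPM in microbead 3, and 18.12 and 14.26 CPM in sham 2. In the other libraries they reached at most 3.347 and 8.498 CPM. Microbead 1 had 0 reads of Cd209a, Ccr2, S100a4 and Fn1, and it had rank 4 of the 14 libraries for H2-Aa and for H2-Eb1 and the highest level of Ciita and Ifi30. In that library of 1.34 M reads, 93 reads of Ciita stood for 66.79 CPM. At that rate the levels of these markers in microbead 2 and 3 correspond to several reads or more each, while much lower levels could go unread. The whole list of dendritic cell genes, given below, summed to 145.1 CPM in microbead 1. The contralateral 1 and 2 libraries, which were above all naive libraries for H2-Aa, had between them 1 read of Ccr2 and 0 of Cd209a, S100a4 and Fn1. In these 2 libraries the list of dendritic cell genes summed to 62.56 and 77.88 CPM.

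As whole lists, the 8 dendritic cell genes summed to 41.5 to 145.1 CPM in microbead, 38.89 to 77.88 in contralateral, 34.92 to 156.5 in sham and 20.76 to 42.84 in naive libraries. This sum did not follow the class II sum throughout: it was 41.5 CPM in microbead 2, where the class II sum was 3418 CPM, and 42.84 CPM in naive 1, where that was 126.6 CPM. The 8 monocyte genes summed to 0 to 158.7, 0 to 36.91, 0 to 75.29 and 2.305 to 12.08 CPM, and Ly6c2 and Chil3 among them had 0 reads in every library, as had Ccr7 of the dendritic cell list. The 6 B cell genes summed to 75.74 to 102.8, 44.33 to 121.3, 15.55 to 136.7 and 26.17 to 59.43 CPM, but the defining Ms4a1 had 0 reads in the series. The 8 genes of border-associated macrophages summed to 94.79 to 114.8, 43.51 to 344.5, 47.45 to 214.6 and 21.69 to 153.5 CPM, in the same order of groups. In microbead against naive 0 of the tested genes of these 4 lists passed the adjusted threshold of edgeR, and at an unadjusted p under 0.05 there were 3 of 5 tested monocyte genes and 1 of 6 tested dendritic cell genes on the higher side, beside 4.72% of all genes, and 1 of 7 tested genes of border-associated macrophages on the lower side, beside 5.81%. The log2 fold change was above 0 for 4 of the 5 monocyte genes, 4 of the 6 dendritic cell genes and 1 of the 7 genes of border-associated macrophages. It was so for 2 of the 2 tested B cell genes, and the median over all genes tested was -0.14. Vcan of the monocyte list and Zbtb46 and Clec9a of the dendritic cell list were lower in microbead than in naive libraries. Their means were 2.255, 1.659 and 0 CPM in microbead and 3.092, 5.787 and 0.2358 CPM in naive libraries. The part of such cells in the class II levels was not tested.

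The rest of the pathway was described from 5 lists with 36 genes, of which 34 were tested. In microbead against naive 0 of the 34 passed the adjusted threshold, with 3 genes on the higher and 1 on the lower side at an unadjusted p under 0.05 (beside 4.72% and 5.81% of all genes), and the median log2 fold change was -0.04. With sham and contralateral as the control group 0 of 34 passed in each, beside 0.014% and 0.028% of all genes. There 2 and 4 genes had an unadjusted p under 0.05, all higher in microbead, beside 4.48% and 4.89% of all genes on that side. The median log2 fold changes were -0.08 and 0.13. Against the mean of sham and naive 2 of the 34, Ctsl and Ctsh, passed the adjusted threshold, both higher in microbead, beside 1.28% of all genes.

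The accessory and nonclassical class II genes include H2-Oa and H2-Ob, which encode the H2-O heterodimer that holds back H2-DM. Of the 3 tested, 0 passed, and their median log2 fold change in microbead against naive was -0.03. H2-Oa had 0.93 (SE 0.54, 76.14 against 39.96 CPM) and H2-Ob -0.03 (SE 0.41, 93.22 against 95.84 CPM), with edgeR's adjusted p of 0.561 and 0.995 (n = 3 and 4). The libraries overlapped for both.

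The factors that bind class II promoters, among them the RFX subunits, NF-Y and Creb1, had a median of -0.18 over 7 genes, and 0 passed. Rfx5, the DNA-binding RFX subunit of the X box, had -2.32 (SE 1.24, 4.657 against 24.04 CPM) and Creb1 had 0.67 (SE 0.53), with edgeR's adjusted p of 0.527 and 0.726. From the gamma-interferon receptor to Ciita, 9 genes had a median of 0, and 0 passed. Spi1, the PU.1 factor of myeloid cells, was read at 57.45, 121.9 and 222 CPM in microbead 1 to 3, at 153.8, 146.8 and 108.7 CPM in contralateral 1 to 3, at 146.6, 111.7, 167.3 and 232.7 CPM in sham 1 to 4, and at 292.9, 262.7, 271 and 234.9 CPM in naive 1 to 4. All libraries of the microbead, contralateral and sham groups were below all naive libraries. The log2 fold change against naive was -0.98 in microbead (SE 0.39, edgeR's adjusted p = 0.4), -0.96 in contralateral (SE 0.39, 0.949) and -0.69 in sham retinas (SE 0.35, 1), and that of microbead against contralateral was -0.02 (SE 0.41, 0.998). The kinase gene Jak1 had -0.57 (SE 0.42, adjusted p = 0.692 in edgeR).

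Endosomal and lysosomal processing was the list with the highest median of the 5, 0.47 over 8 genes. Ctsl, a cathepsin that trims the invariant chain in some cell types, was read at 1190, 1367 and 2234 CPM in microbead 1 to 3, at 398, 991.3 and 711.3 CPM in contralateral 1 to 3, at 791.6, 951.3, 931.2 and 758.9 CPM in sham 1 to 4, and at 574.7, 637.9, 801 and 445.2 CPM in naive 1 to 4. Ctsh, an aminopeptidase of the same compartment, was read at 1597, 1529 and 2124 CPM in microbead 1 to 3 and at 748.1 to 1063 CPM in all other libraries. For both genes every microbead library was above every other library.

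The log2 fold change against naive was 1.38 (SE 0.30) for Ctsl and 1.00 (SE 0.21) for Ctsh, with edgeR's adjusted p of 0.0646 and 0.051. Against the mean of sham and naive it was 1.14 (SE 0.25) and 0.91 (SE 0.18), with adjusted p of 0.0312 and 0.0159. Both calls ended with the length trend removed (1.24, adjusted p = 0.0564 for Ctsl and 0.61, 0.223 for Ctsh, in edgeR) and with the replicate number as a block (1.01, 0.0749 and 0.88, 0.0602). The call of Ctsl also ended without microbead 1, 2 or 3, sham 1, 2, 3 or 4, or naive 1, 2 or 4, with an adjusted p of up to 0.165 and log2 fold changes of 0.80 to 1.28, while that of Ctsh did not end without any 1 library (adjusted p of at most 0.0469).

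Genes of class II turnover and co-stimulation had a median of -0.16 over 7 genes, and 0 passed. Cd86, a co-stimulatory ligand for T cells, had 0.23 (SE 0.36, 262.7 against 224 CPM, edgeR's adjusted p = 0.911). Cd40, which receives help from T cells, was at or below 1.31 CPM on average in both groups, too low to read a difference (-3.71, SE 3.10, adjusted p = 0.748 in edgeR).

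**Figure D4:**
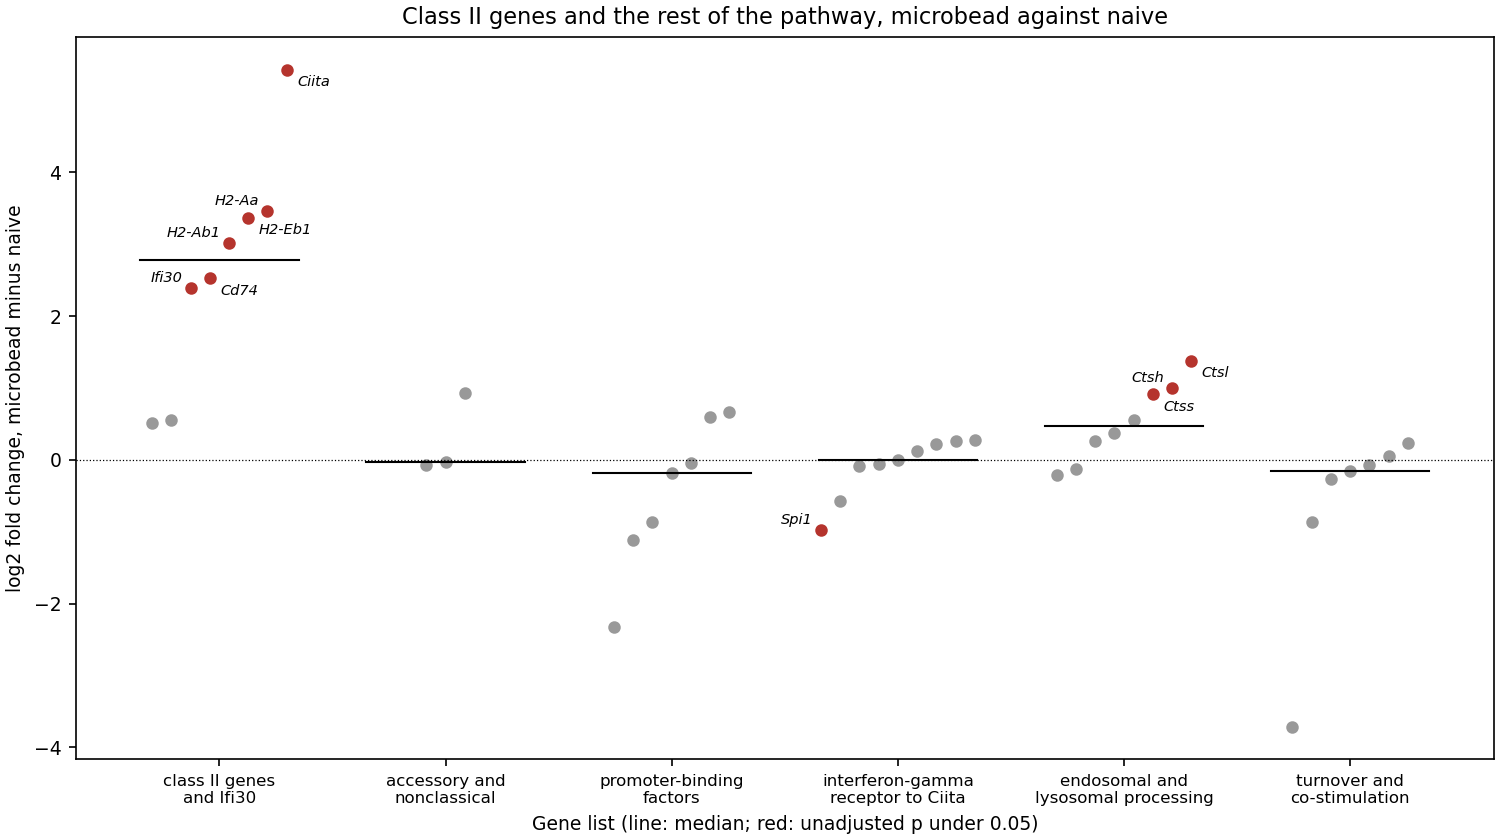
Log2 fold change of microbead against naive for each tested gene of the 8 described genes and of the 5 pathway lists, with lines at the medians and red points at an unadjusted p under 0.05. The 8 genes have a median of 2.78 and the 5 lists medians of -0.18 to 0.47.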

How the data were processed

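Per the file headers, each library's table by the authors gives expected counts, estimated reads per gene that are not scaled to depth, and FPKM, which the authors scaled to transcript length and mapped reads; gene lengths come from the same deposited tables. A series-wide table by the authors, which pairs identifiers with names, gave FPKM that differed by 0 from the single tables for the 8 genes. Tools named in the submitters' processing notes, with no role, are R 4.0.3, Salmon 1.4.0 and DESeq2 1.30.1, and the build is mm10; which of them made the tables was not given in the sources used here.

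Expected counts were rounded and fitted in R 4.3.3 with edgeR 4.0.16: filterByExpr (minimum count 10) left 14279 genes, libraries were scaled by TMM, and 1 robust quasi-likelihood model with a coefficient per group was fitted to all 14 libraries (10 residual degrees of freedom, common biological coefficient of variation 1.13). Contrasts were tested two-sided, with Benjamini-Hochberg adjustment over all genes tested and a threshold of 0.05. CPM are TMM-scaled; correlations used log2 CPM with a prior count of 2 and genes of at least 10 CPM. The likeness rule named the 5 genes with the highest Pearson r, and from each pathway list the 2 genes with the smallest p against naive and those past the threshold were named. Results for some genes these rules and lists take in are not reported here. The limit for a count of 0 is 3 reads.

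Alternatives were DESeq2's size factors, no filter, the Wald test of DESeq2 1.42.0, a fit of only the groups compared, a block for the replicate number, a lowess trend of log2 CPM on transcript length (span 0.5) removed per library, libraries of 12000 genes or more, and each library left out. The procedure was tested on simulated data that held no length trend and no shared replicate effect. That test therefore says nothing of how these change the calls. Genes, lists and alternatives were chosen with earlier results of these data known. Promoter windows come from RefSeq (GRCm38.p6) and coordinates from GENCODE M21; H2-Ab1, Cd74 and Ciita had no matched window.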

Additional observations from a re-analysis of the deposited data

Results flagged for a closer look

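In each group of 4, libraries were screened for 1 that stood apart from the rest of its group by Dixon's test at the 95% level. For independent, normally distributed values that test picks about 1 group in 20 by chance. That rate need not hold for CPM of genes measured in the same libraries. Of 16 combinations of gene and group, 4 stood apart. Sham 2 was the highest sham library for H2-Eb1, at 644 CPM, and for Ciita, at 61.4 CPM. Naive 2 was the highest naive library for H2-Ab1, at 452 CPM, and for Ciita, at 2.55 CPM, a level of only 34 reads. The groups of 3 libraries were not screened.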

How the results depend on the processing

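Counts of genes past the threshold moved with the setting. For microbead against sham, 2 genes passed, and 139 did with no filter, 464 by the Wald test of DESeq2, 7 over libraries of 12000 genes or more, and 0 with the compared groups alone, with the replicate block and with the length trend removed, and 0 to 134 without each library. Against naive, 30 genes became 46 with DESeq2's size factors, 162 with no filter, 569 by the Wald test, 5 alone, 1 with the block, 4 without the trend, and 0 to 168 without each library. Against contralateral, 4 became 157 with no filter, 676 by the Wald test, 0 alone and with the block, 2 without the trend, 9 over libraries of 12000 genes or more, and 0 to 162 without each library. Against the mean of sham and naive, 183 became 359, 804, 315, 70, 10 and 60 in these settings (no filter, Wald test, alone, block, trend, 12000 genes), and 27 to 285 without each library. Contralateral against naive went from 0 to 21 with no filter, 71 by the Wald test and 0 to 11 without each library, contralateral against sham to 22, 72 and 0 to 21, and sham against naive to 14, 28 and 0. Of the 8 genes, with no filter 4, 5, 4 and 5 passed against sham, naive, contralateral and the mean, 3 in contralateral and 4 in sham against naive. By the Wald test 1, 4, 1 and 3 passed in the microbead comparisons, and against naive 0 passed with the replicate block or without the trend. Without each library 0 to 1 passed against sham, naive and contralateral, and 1 to 3 against the mean. Signs turned for uncalled genes only: over libraries of 12000 genes or more for H2-DMb1 (0.23) and Ciita (-0.67) against sham and H2-DMa (0.19) against contralateral, and without the trend for H2-DMb1 (0) there. Contralateral against naive turned for Ciita (1.99 with the block, 0.09 over libraries of 12000 genes or more). Contralateral against sham turned with the block for H2-Aa (0.21), H2-Ab1 (0.09), Cd74 (0.39) and Ifi30 (-0.07), without the trend for H2-Eb1 (-0.07) and Ifi30 (-0.09), and over libraries of 12000 genes or more for H2-Eb1 (-0.11) and Cd74 (0.05). Leaving out 1 library turned H2-DMb1 (-0.50 to 0.23) and Ciita (-0.67 to 3.13) against sham, H2-DMa (-0.40 to 0.14) and H2-DMb1 (-0.21 to 0.51) against contralateral, H2-DMb1 (-0.18 to 0.55) against the mean, Ciita (-1.26 to 3.39) and Ifi30 (-0.05 to 0.78) in contralateral against naive, and H2-Aa (-0.56 to 0.82), H2-Ab1 (-0.67 to 0.82), H2-Eb1 (-0.17 to 1.13), Cd74 (-0.37 to 0.92) and Ifi30 (-0.46 to 0.41) in contralateral against sham. The cause of these changes was not tested. Whether the replicate numbers pair retinas, such as the eyes of one mouse, is not given. Deviations correlated above 0.1 in 3 of 19 same-numbered pairs of libraries (median -0.006, highest 0.14) and in 0 of 54 other pairs (highest 0.098). All 3 were pairs among microbead 3, contralateral 3 and naive 3 (0.121, 0.106 and 0.14), while sham 3 had -0.033 to -0.032 with these libraries. Between microbead and contralateral libraries a value above 0.1 was found for 1 of 3 same-numbered pairs (-0.046 to 0.121), and in no pair of groups for all. What the number 3 libraries share was not tested. With no label for the numbers, the fit without the block was kept, and values with the block are given above. Ciita had the fewest reads of the 8 genes, with 17 over the 3 contralateral libraries. Of these, 14 were in contralateral 3, at 14 M reads the deepest library.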
